A study of Mus musculus with 97 samples.

Results

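The genes followed here carry the interferon signal from the cell surface to the nucleus. They are 5 receptor chains (Ifnar1, Ifnar2, Ifngr1, Ifngr2 and Ifnlr1), the signal transducer Stat2 and the interferon regulatory factors Irf1, Irf7 and Irf9. They were taken by gene symbol and make up 9 of the 20457 genes in the deposited table. All 9 were among the 17083 genes tested, which had a value of 1 TPM (a transcript's share of its library, corrected for length) or more in at least 4 libraries.

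Type I interferons bind a receptor made of Ifnar1 and Ifnar2, interferon gamma binds one made of Ifngr1 and Ifngr2, and interferon lambda binds Ifnlr1 paired with Il10rb, a receptor that in the gut is found mainly on epithelial cells. Janus kinases on these chains phosphorylate STAT proteins. After type I or lambda interferon, Stat2 and Irf9 act in the complex ISGF3, which binds the interferon-stimulated response element (ISRE). Interferon gamma acts through the gamma-activated site (GAS), and Irf1 is a classical gene switched on this way. Irf7 drives type I interferon genes in infected or sensing cells and is itself induced by interferon.

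Poly(A) RNA of the whole colon was sequenced in 97 libraries from wild type C57BL6/J mice, 8 to 12 weeks old and held under specific pathogen free conditions. Mice received neomycin, vancomycin, ampicillin, metronidazole or all in a mix, or only PBS (the vehicle). Delivery was by gavage (PO), by injection into the peritoneum (IP) or by injection into a vein (IV). A dose of 2.5 mg in 100 µl of PBS was given 2 times a day for 3 days and again on day 4, with tissue collected 4 hours afterwards, and how much of each drug the mix held is not given in the sources used here. What each drug and route does to colon transcripts is the question of the design. The 18 groups held 6 libraries each, apart from 4 in PBS-IP, Vancomycin-IP, Metronidazole-IV and Metronidazole-IP and 5 in PBS-IV, Vancomycin-IV and Neomycin-IV. The labels do not state that each replicate was a separate mouse, so p-values here measure the spread between libraries, which may be technical. In whole tissue, fewer cells of a type and less RNA per cell cannot be told apart.

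TPM values are per length, so that levels can be compared between genes, and sum to the same total in every library, so that depth is unknown. The tissue of origin varied between libraries. An epithelium score, the mean log2(TPM + 1) of 10 marker genes, ran from 6.72 to 10.9, a smooth muscle score of 10 genes from 8.04 to 12.4, and a distal score of 6 posterior Hox genes from 1.46 to 5.90. All these defining markers of colon epithelium and muscle were present. The columns of 12 libraries had been appended at the end of the table, 2 in PBS-IP, 2 in PBS-IV, 3 in Vancomycin-IP, 2 in Vancomycin-IV and 3 in Vancomycin-PO.

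Promoter windows of the 9 genes are shown first because these pathways act through short DNA motifs. RefSeq gives 11 windows for them on GRCm38.p6, each of 300 bases, from 250 before to 50 after a transcription start. Motifs were searched on both strands as GAAA, any 2 bases and GAAA (ISRE-like) and as TTCNNNGAA (GAS-like), and matches of these motifs did not overlap in these windows. The ISRE-like letters were found in 3.44% of all 32851 RefSeq promoter windows, and the GAS-like letters in 8.3%. Stat2 held one ISRE-like match, Irf1, Ifnar1 and Ifnar2 each held one GAS-like match, and the match in Ifnar1 spanned the start itself. The windows of Irf7, Irf9, Ifngr1, Ifngr2 and Ifnlr1 held no match to these letters, which says nothing about other forms of the motifs or other windows. Of the 17 genes on a list of 25 ISGF3 targets that had a window, 8 held the ISRE-like letters (47.1%, against 3.99% of all 27025 genes). The GAS-like letters were held by 5 of these 17 (29.4%, against 9.55% of all genes). The stretches around the matches lie at chr10:128270256-128270305 (plus strand) for Stat2, chr11:53769904-53769952 (plus strand) for Irf1 and chr16:91372549-91372597 (plus strand) for Ifnar2, with the match in capitals and 20 bases on either side. They are written 5′ to 3′ on the strand of the gene, so that the Stat2 match, which is on the other strand, reads as its reverse complement. The matches are descriptions of sequence, and no binding was measured.
Stat2 promoter: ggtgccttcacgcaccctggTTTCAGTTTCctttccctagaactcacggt
Irf1 promoter: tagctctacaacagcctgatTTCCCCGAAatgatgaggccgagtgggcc
Ifnar2 promoter: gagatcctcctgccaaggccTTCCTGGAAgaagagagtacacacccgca

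The receptor chains differed widely in level under PBS. Over the 15 PBS libraries Ifngr1 (ENSMUSG00000020009), the ligand-binding chain of the interferon gamma receptor, stood at 203.0 ± 100.7 TPM (SD, n = 15). Its partner Ifngr2 (ENSMUSG00000022965), which brings in Jak2, stood at 99.4 ± 34.2 TPM. The chains of the type I receptor were lower, at 28.7 ± 4.23 TPM for Ifnar1 (ENSMUSG00000022967) and 16.97 ± 5.22 TPM for Ifnar2 (ENSMUSG00000022971). Ifnlr1 (ENSMUSG00000062157), the lambda-specific chain, was lowest at 14.05 ± 4.60 TPM. Within a library Ifngr1 exceeded Ifnar1 in 97 of 97, with a median ratio of 5.13 (from 1.31 to 17.3). Ifnar1 exceeded Ifnar2 in 95 of 97 libraries (median ratio 1.87), and Ifngr1 exceeded Ifngr2 in 91 of 97 (median ratio 1.60). Ifnar2, Il10rb, Ifnar1 and Ifngr2 lie next to each other on chromosome 16 in the order of protein-coding genes in the GENCODE annotation of GRCm38, with the gene model Gm21970 between Ifnar2 and Il10rb.

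The spread of the receptor chains was mostly inside the groups. Group membership held 23.1% of the variance of log2(TPM + 1) for Ifnar1, 25.0% for Ifnar2, 25.4% for Ifngr1, 34.4% for Ifngr2 and 25.0% for Ifnlr1. These shares are not corrected for the number of groups, and 18 group means hold part of the variance even where groups do not differ. Group means of Ifnar1 ran from 25.4 ± 3.86 TPM in PBS-IP (n = 4) to 39.4 ± 8.61 in Ampicillin-IV (n = 6), a ratio of 1.55. Those of Ifnar2 ran from 14.2 ± 5.10 TPM in Ampicillin-IV to 26.3 ± 8.39 in Vancomycin-IP. The interferon gamma receptor had its lowest means in Vancomycin-IP, at 103 ± 24.5 TPM for Ifngr1 and 73.3 ± 4.86 for Ifngr2. Its highest means were 288 ± 123 TPM in Neomycin-IP for Ifngr1 and 163 ± 59.4 in Mix-IP for Ifngr2. Ifnlr1 ran from 9.502 ± 1.88 TPM in Vancomycin-IP to 19.95 ± 4.21 in Mix-IP. When the 18 groups were ordered by their mean, no neighbouring pair in the order of any receptor chain was apart by more than the larger of both SDs.

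**Figure D1:**
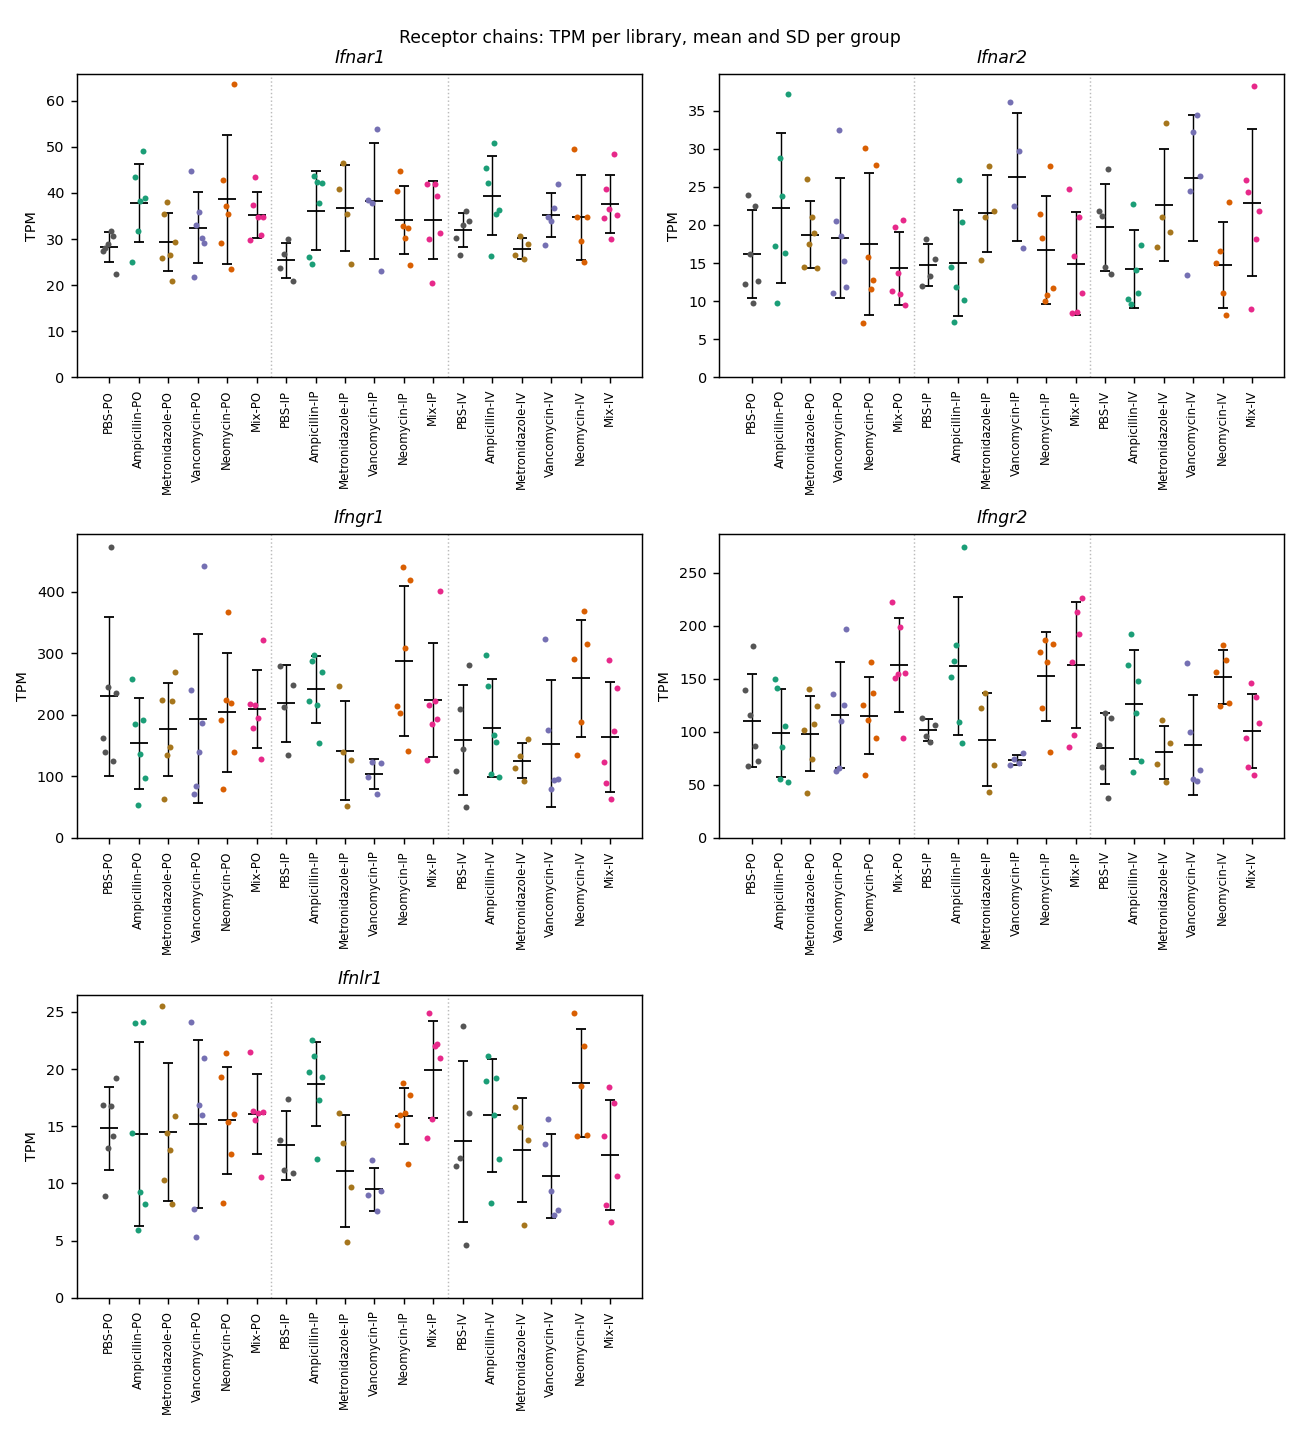
TPM of the 5 receptor chains in each library (points), with the mean (long bar) and SD (whiskers) of each of the 18 groups, ordered by route with PBS first. The groups overlap broadly for all 5 chains, and Ifngr1 and Ifngr2 are lowest in Vancomycin-IP.

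Of the factors downstream of the receptors, Irf9, Stat2 and Irf7 had more of their variance between groups than any receptor chain. Under PBS Irf1 (ENSMUSG00000018899) stood at 155.7 ± 51.2 TPM, Irf7 (ENSMUSG00000025498) at 203.9 ± 200.2, Stat2 (ENSMUSG00000040033) at 55.1 ± 28.1 and Irf9 (ENSMUSG00000002325) at 51.5 ± 21.4 (SD, n = 15). Irf7 varied most, from 35.6 to 675.0 TPM among PBS libraries and from 13.6 to 1421 over all 97. Group membership held 67.9% of the variance of Irf9, 50.8% for Stat2, 50.3% for Irf7 and 33.1% for Irf1, again not corrected for the number of groups. In the annotation of GRCm38, Irf9 overlaps Rnf31 on the same strand, Irf7 overlaps Phrf1 and Irf1 overlaps Gm17334 on the opposite strand, and Ifnar2 overlaps Gm21970 on the same strand. The strand setting is not given in the sources used here, so part of the value of these 4 genes could belong to the overlapping gene.

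The DNA-binding subunit of ISGF3, Irf9, had the clearest order of groups. By mouth its means (± SD) were 46.1 ± 11.4 with PBS, 36.1 ± 17.3 with ampicillin, 44.4 ± 13.4 with metronidazole, 38.8 ± 12.3 with vancomycin, 49.0 ± 9.44 with neomycin and 61.3 ± 12.1 with the mix, in TPM. Into the peritoneum they were 57.0 ± 22.2 with PBS, 36.7 ± 8.18 with ampicillin, 36.4 ± 11.8 with metronidazole, 29.9 ± 11.3 with vancomycin, 111 ± 20.5 with neomycin and 87.5 ± 13.96 with the mix. Into a vein they were 53.5 ± 31.4 with PBS, 39.9 ± 11.1 with ampicillin, 40.7 ± 9.14 with metronidazole, 32.7 ± 6.83 with vancomycin, 105 ± 17.02 with neomycin and 68.1 ± 13.9 with the mix. The neomycin groups by injection were highest and the mix by injection came next, while the means of all single drugs other than neomycin lay below PBS of their route. Of the 17 neighbouring pairs in the order, 2 were apart by more than the larger SD, Neomycin-IV above Mix-IP and Mix-IP above Mix-IV.

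Stat2, which gives ISGF3 its activation domain, followed a similar order. By mouth its means were 51.4 ± 14.8 with PBS, 55.5 ± 16.98 with ampicillin, 52.2 ± 22.4 with metronidazole, 39.7 ± 8.70 with vancomycin, 71.6 ± 33.6 with neomycin and 60.1 ± 7.42 with the mix, in TPM. Into the peritoneum they were 46.1 ± 32.6 with PBS, 43.8 ± 16.1 with ampicillin, 46.4 ± 6.504 with metronidazole, 47.3 ± 12.0 with vancomycin, 111 ± 35.5 with neomycin and 87.0 ± 18.9 with the mix. Into a vein they were 66.6 ± 37.8 with PBS, 49.4 ± 4.72 with ampicillin, 67.3 ± 27.1 with metronidazole, 41.7 ± 12.7 with vancomycin, 116 ± 22.9 with neomycin and 73.4 ± 17.4 with the mix. Neomycin-IV and Neomycin-IP were again highest, and no neighbouring pair in the order was apart by more than the larger SD.

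Irf7 had the widest range of group means, 8.50-fold from the lowest to the highest. By mouth its means were 168 ± 112 with PBS, 172 ± 182 with ampicillin, 119 ± 119 with metronidazole, 173 ± 122 with vancomycin, 186 ± 70.5 with neomycin and 432 ± 146 with the mix, in TPM. Into the peritoneum they were 225 ± 300.2 with PBS, 174 ± 121 with ampicillin, 106 ± 129 with metronidazole, 97.6 ± 70.2 with vancomycin, 708 ± 288 with neomycin and 633 ± 359 with the mix. Into a vein they were 230.5 ± 231 with PBS, 195 ± 187 with ampicillin, 209 ± 176 with metronidazole, 104 ± 88.6 with vancomycin, 829.8 ± 338 with neomycin and 321 ± 114 with the mix. In each of the 3 routes the mix stood above PBS, and by injection neomycin stood higher still. The SDs of Irf7 were often as large as the mean, and no neighbouring pair in its order was apart by more than the larger SD.

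Irf1 shared the ends of this order but not its middle. By mouth its means were 163 ± 43.2 with PBS, 98.4 ± 44.5 with ampicillin, 138 ± 41.4 with metronidazole, 121 ± 50.1 with vancomycin, 126 ± 50.9 with neomycin and 134 ± 33.6 with the mix, in TPM. Into the peritoneum they were 148 ± 27.4 with PBS, 113 ± 14.1 with ampicillin, 117 ± 54.5 with metronidazole, 82.4 ± 10.1 with vancomycin, 174 ± 41.5 with neomycin and 133 ± 38.7 with the mix. Into a vein they were 153 ± 78.3 with PBS, 111 ± 36.7 with ampicillin, 118 ± 40.5 with metronidazole, 89.7 ± 38.1 with vancomycin, 207 ± 34.9 with neomycin and 98.2 ± 24.3 with the mix. Neomycin-IV and Neomycin-IP had the highest means of Irf1 and Vancomycin-IV and Vancomycin-IP the lowest, as for Irf7. The mix lay below PBS by every route for Irf1, whereas it lay above PBS by every route for Irf9, Stat2 and Irf7.

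**Figure D2:**
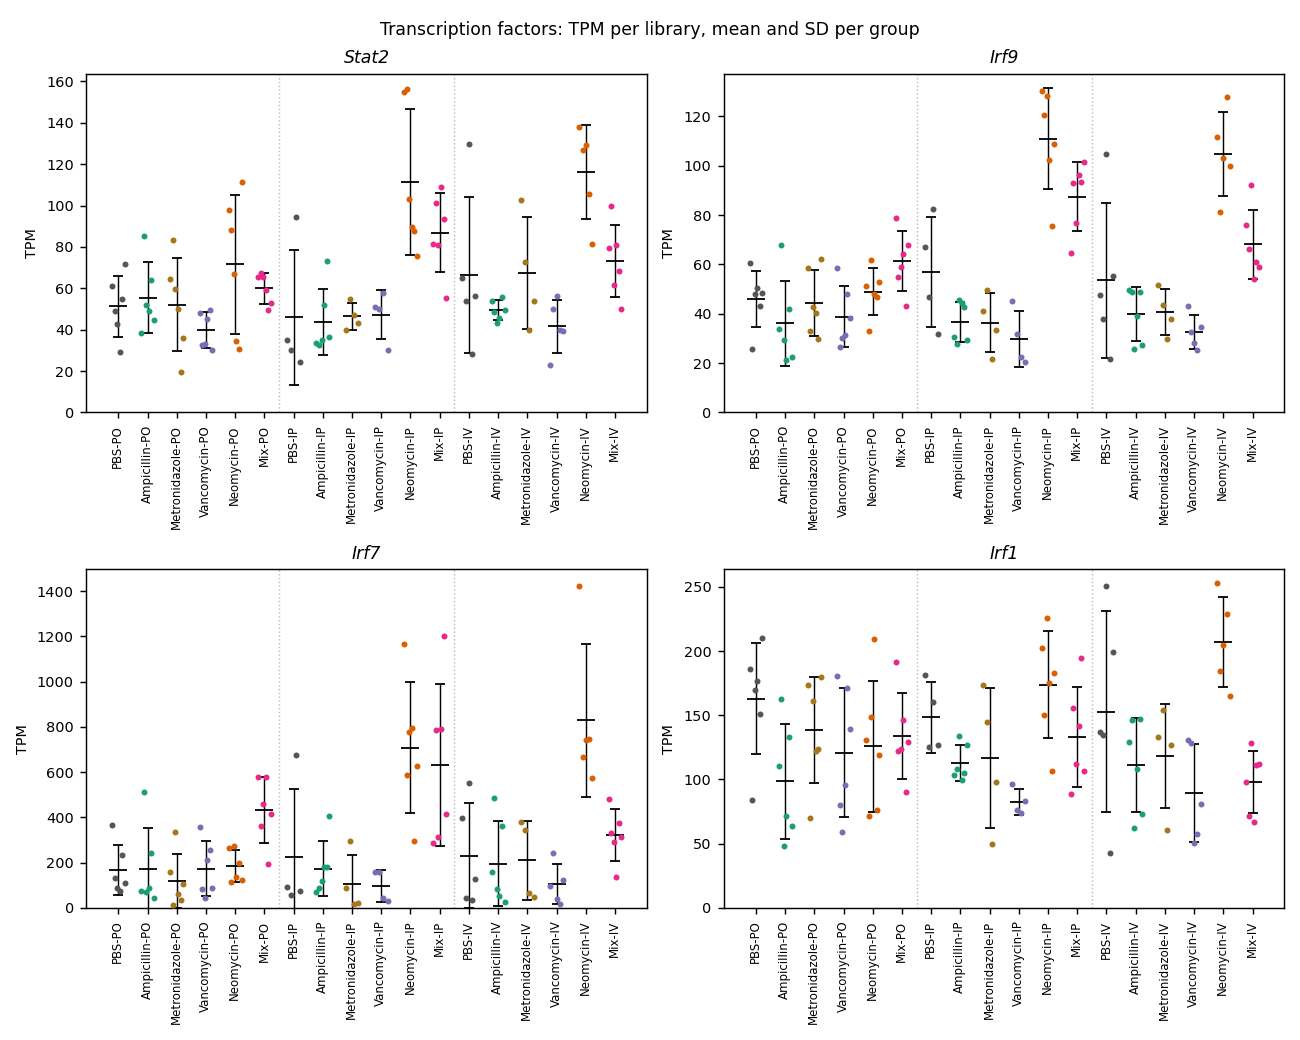
TPM of Stat2, Irf9, Irf7 and Irf1 in each library (points), with the mean (long bar) and SD (whiskers) of each of the 18 groups, ordered by route with PBS first. Neomycin-IP and Neomycin-IV have the highest means for Irf9 and Stat2, and the highest PBS libraries reach 675 TPM of Irf7 in PBS-IP and 551 in PBS-IV.

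Against PBS of the same route, neomycin into the peritoneum raised Stat2. Its libraries lay from 75.8 to 156 TPM with a median of 96.6, against PBS-IP libraries at 24.5, 30.2, 35.1 and 94.6 TPM. All 6 neomycin libraries lay above the 3 lower PBS libraries, and 3 lay above the highest. The log2 change of TPM + 1, which understates folds of low genes, was 1.41 (SE 0.31, 95% interval 0.79 to 2.03, adjusted p = 0.00758), and the ratio of mean TPM was 2.42. Stat2 was 1 of 9 members called at an adjusted p under 0.05, beside 0.603% of all tested genes. At an unadjusted p under 0.05 there were 3 of 9 members, beside 993 of the 17083 tested genes. Irf9 lay from 75.6 to 130.4 TPM with a median of 115 against 31.8, 46.8, 67.0 and 82.3 TPM in PBS-IP, with 5 of 6 above the highest PBS library, and its change of 1.01 (SE 0.27, 95% interval 0.48 to 1.55, adjusted p = 0.0504) fell just outside the threshold. Irf7 lay from 297 to 1168 TPM with a median of 702 against 58.1, 74.6, 93.5 and 675 TPM, and its change was 2.33 (SE 0.76, 95% interval 0.83 to 3.84, adjusted p = 0.214). A change that was not called is not shown to be absent. For Irf1 the change was 0.21 (SE 0.33, adjusted p = 1), and for the 5 receptor chains the changes ran from 0.09 (Ifnar2) to 0.53 (Ifngr2). The estimates of all 9 members were above 0, with a median of 0.40 beside 0.08 over all tested genes, although that of Ifnar2 was below 0 under quantile normalization and with sample weights.

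One PBS-IP library, replicate 3, stood apart from its group in Irf7 (675.0 TPM) and Stat2 (94.6). In Irf9 it was the highest (82.3) of an evenly spread group. It was also the PBS-IP library with the lowest distal score, 1.61 against 4.52 to 4.89 in the other 3, and it was among the appended columns. Without it, Stat2 (1.82, adjusted p = 0.000192), Irf7 (3.13, adjusted p = 0.037) and Irf9 (1.22, adjusted p = 0.0162) were called. Without PBS-IP replicate 2 or 4 Stat2 was not called, with an adjusted p of up to 0.139. With the smooth muscle and distal scores as covariates the changes were 1.46 (adjusted p = 0.000163) for Stat2, 2.59 (adjusted p = 0.000126) for Irf7 and 1.08 (adjusted p = 0.000329) for Irf9, with 1.51% of all genes called. The distal score was 4.23 ± 1.27 in Neomycin-IP (n = 6) and 3.97 ± 1.58 in PBS-IP (n = 4), and the epithelium score was 10.2 ± 0.517 and 10.3 ± 0.0912. The part of sampling position in these values was not tested. Fitted on Neomycin-IP and PBS-IP alone, the change in Stat2 was not called (adjusted p = 0.228).

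Neomycin into a vein raised Irf9. Its libraries lay at 81.1, 100.0, 103, 111 and 128 TPM, against PBS-IV libraries at 21.7, 37.7, 47.8, 55.5 and 105 TPM. All 5 lay above 4 of the 5 PBS libraries, and 2 lay above the highest. The change was 1.12 (SE 0.26, 95% interval 0.60 to 1.65, adjusted p = 0.0135), and the ratio of mean TPM was 1.96. Irf9 was 1 of 9 members called, beside 0.544% of all tested genes. An unadjusted p under 0.05 was found for 4 of 9 members and for 1236 of the 17083 tested genes. Irf7 lay at 572, 668, 743, 745 and 1421 TPM against 35.6, 43.5, 126, 397 and 551 TPM in PBS-IV, so that the groups did not overlap, with a change of 2.54 (SE 0.74, 95% interval 1.07 to 4.01, adjusted p = 0.125). Stat2 lay at 81.3, 106, 127, 129 and 138 TPM against 28.2, 53.8, 56.3, 64.9 and 129.6 TPM, with a change of 0.94 (SE 0.31, 95% interval 0.33 to 1.55, adjusted p = 0.258). Of the receptor chains, Ifngr2 lay at 124, 127, 156, 168 and 182 TPM against 37.3, 66.3, 87.7, 113 and 118 TPM, again without overlap, and its change was 0.93 (SE 0.35, 95% interval 0.24 to 1.62, adjusted p = 0.418). Of 9 members, 2 thus had groups that did not overlap, against 1.88% of all tested genes, and neither was called.

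Here too single control libraries weighed on the calls. PBS-IV replicate 3 was highest of its group in Stat2 (129.6 TPM), Irf9 (104.9), Irf7 (550.9) and Irf1 (251.0), and had the lowest distal score of its group, 1.86. PBS-IV replicate 4 was lowest in Irf9 (21.7 TPM), Irf7 (35.6), Ifngr1 (50.4) and Ifngr2 (37.3), and its epithelium score of 6.72 was the lowest of all 97 libraries. Without replicate 3, Irf9 (1.41, adjusted p = 0.00033), Irf7 (3.05, adjusted p = 0.0299) and Stat2 (1.22, adjusted p = 0.0357) were called. Without PBS-IV replicate 2 or 4 or Neomycin-IV replicate 4 Irf9 was not called, with an adjusted p of up to 0.314. With both scores as covariates the changes were 0.98 (adjusted p = 0.00145) for Irf9, 2.20 (adjusted p = 0.00179) for Irf7 and 0.90 (adjusted p = 0.0888) for Stat2, with 0.907% of all genes called. Fitted on Neomycin-IV and PBS-IV alone, Irf9 was not called (adjusted p = 0.716), and without the appended libraries its change was 1.58 (adjusted p = 8.62e-05), with 3 members called.

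By mouth 0 of 9 members were called with neomycin in the limma test, beside 0.0176% of all genes. At an unadjusted p under 0.05 there was 1 member, beside 914 of the 17083 tested genes. Irf9 lay from 33.1 to 61.9 TPM with a median of 49.6, against a range of 25.8 to 60.4 TPM (median 48.2) in PBS-PO, and Irf7 from 115 to 272 TPM with a median of 169 against a range of 75.5 to 367 TPM (median 121). Both pairs of groups overlapped, with changes of 0.11 (SE 0.24, 95% interval -0.37 to 0.59, adjusted p = 0.999) and 0.30 (SE 0.68, 95% interval -1.05 to 1.64, adjusted p = 0.999). The estimate for Stat2 was 0.37 (SE 0.28, 95% interval -0.19 to 0.92, adjusted p = 0.999), with 3 of 6 neomycin libraries above the highest PBS library. The member with an unadjusted p under 0.05 was Ifnar1, at 0.38 (SE 0.18, adjusted p = 0.925).

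The difference between routes was tested directly and no member passed. The change by peritoneum minus that by mouth was 1.04 (SE 0.42, adjusted p = 1) for Stat2, 0.91 (SE 0.36, adjusted p = 1) for Irf9 and 2.04 (SE 1.01, adjusted p = 1) for Irf7. These 3 had an unadjusted p under 0.05, as had 295 of the 17083 tested genes, and 0.0644% of all genes were called. The change by vein minus that by mouth was 1.01 (SE 0.36, adjusted p = 0.818) for Irf9, 2.24 (SE 1.00, adjusted p = 0.818) for Irf7 and 1.05 (SE 0.44, adjusted p = 0.818) for Irf1, beside 0.0585% of all genes called. Between vein and peritoneum no member had an unadjusted p under 0.05, and 0% of all genes were called. A joint F test asked whether the change was the same by all 3 routes. For neomycin it called 0 of 9 members, beside 0.0878% of all genes. At an unadjusted p under 0.05 it had 3 members, beside 417 of the 17083 tested genes. It also called 0 of 9, with 0 at an unadjusted p under 0.05 and 0% of all genes called, for each of vancomycin, metronidazole, ampicillin and the mix, and for PBS across routes. The rise by injection is therefore not shown to differ from the change by mouth.

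**Figure D3:**
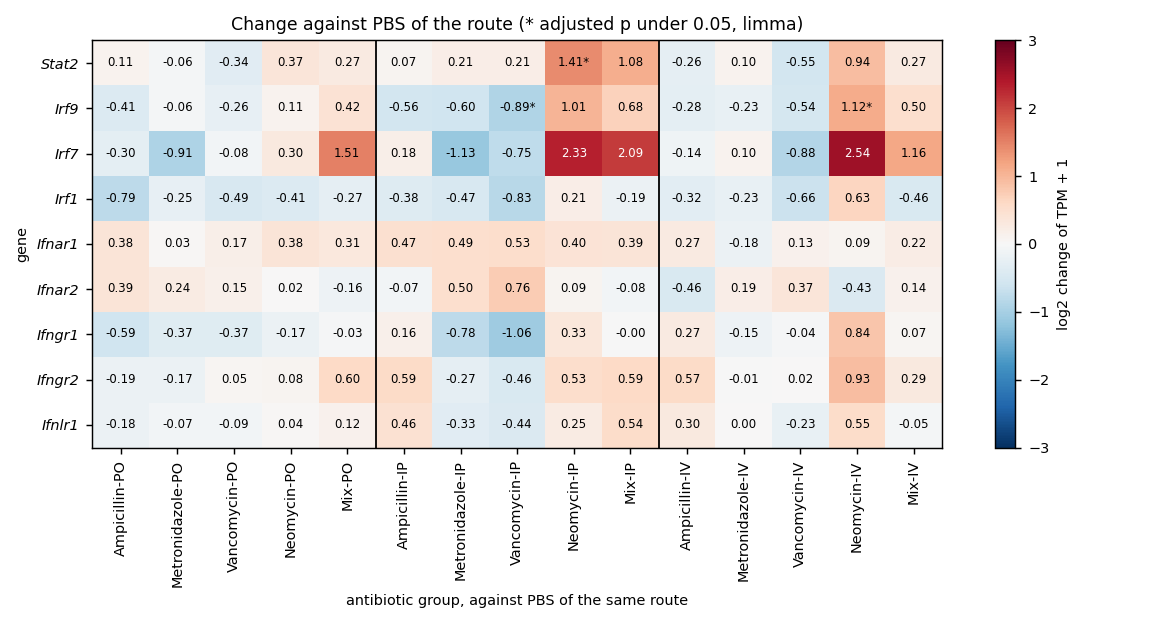
Log2 change of TPM + 1 for each of the 9 genes (rows) in each antibiotic group against PBS of its route (columns), by limma; an asterisk marks an adjusted p under 0.05. The 3 called cells are Stat2 in Neomycin-IP (1.41), Irf9 in Neomycin-IV (1.12) and Irf9 in Vancomycin-IP (-0.89), and Irf7 in Neomycin-IV has the largest estimate (2.54) without being called.

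A comparison without the PBS libraries set neomycin against the mean of ampicillin, metronidazole and vancomycin given by the same route. Into the peritoneum 3 of 9 members were higher with neomycin, beside 1.15% of all genes called. Irf9 lay from 75.6 to 130.4 TPM in 6 neomycin libraries and from 20.3 to 49.6 in the 14 libraries of the other drugs, with no overlap and a difference of 1.70 (SE 0.20, 95% interval 1.29 to 2.11, adjusted p = 9.65e-10). Stat2 lay from 75.8 to 156.5 TPM against 30.1 to 73.3, also with no overlap, and differed by 1.24 (SE 0.24, 95% interval 0.77 to 1.72, adjusted p = 0.000247). Irf7 lay from 296.6 to 1168 TPM against 19.3 to 403.8, with 5 of 6 neomycin libraries above the highest other library, and differed by 2.90 (SE 0.57, 95% interval 1.76 to 4.04, adjusted p = 0.000512). Non-overlapping groups, as for Irf9 and Stat2, were found in 0.41% of all tested genes. Each of these 3 was called with any of the 20 libraries left out in turn. The median difference of the 9 members was 0.77, against 0.0028 over all genes.

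Into a vein 4 of 9 members were higher with neomycin than with the other single drugs, beside 0.972% of all genes called. Irf9 lay from 81.1 to 127.7 TPM against 25.1 to 51.5 in 15 libraries and differed by 1.47 (SE 0.22, 95% interval 1.04 to 1.9, adjusted p = 6.21e-07). Irf7 lay from 572.3 to 1421 TPM against 17.4 to 486.0 and differed by 2.85 (SE 0.61, 95% interval 1.64 to 4.06, adjusted p = 0.00188). Irf1, a classical target of interferon gamma, lay from 165.0 to 253.1 TPM against 50.6 to 153.8 and differed by 1.04 (SE 0.27, 95% interval 0.50 to 1.57, adjusted p = 0.0291). For these 3 genes the neomycin libraries did not overlap the others, as for 0.562% of all tested genes. Stat2 had 4 of 5 neomycin libraries above the highest other library and differed by 1.18 (SE 0.25, 95% interval 0.68 to 1.68, adjusted p = 0.00188). Irf9, Stat2 and Irf7 were called with any of the 20 libraries left out, whereas Irf1 was called in 13 of 20, its adjusted p reaching 0.145 without one of Metronidazole-IV replicate 3, Vancomycin-IV replicates 3 and 4 or Neomycin-IV replicates 1 to 4. Irf1 differed by 0.71 (adjusted p = 0.0408) with both scores as covariates, and neither Irf1 (adjusted p = 0.0865) nor Irf7 (adjusted p = 0.0543) was called when the 4 groups were fitted alone.

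The receptor chains were not called in either injection route. The difference of Ifnar1 from the other single drugs was -0.10 (SE 0.15, 95% interval -0.40 to 0.21, adjusted p = 0.745) into the peritoneum and 0.01 (SE 0.16, 95% interval -0.31 to 0.34, adjusted p = 0.973) into a vein, the narrowest intervals of the 9 members. The differences of Ifnar2 were -0.31 (SE 0.26, adjusted p = 0.49) and -0.46 (SE 0.27, adjusted p = 0.329). Ifngr1, at 0.89 (SE 0.34, adjusted p = 0.239) and 0.81 (SE 0.36, adjusted p = 0.256), and Ifngr2, at 0.58 (SE 0.27, adjusted p = 0.275) and 0.74 (SE 0.28, adjusted p = 0.217), had unadjusted p under 0.05 in both routes. Ifnlr1 had differences of 0.35 (SE 0.25, adjusted p = 0.404) and 0.53 (SE 0.26, adjusted p = 0.284). The smooth muscle markers had a median difference of -1.10 and -1.01 in the same comparisons and the epithelial markers of 0.93 and 1.21. In each list 0 of 10 were called. Muscle content was taken into account only in the fit with covariates. The epithelium score was not a covariate, so the part of epithelial content in the receptor values was not tested. With the muscle and distal scores as covariates the differences by peritoneum and vein were 0.10 (adjusted p = 0.986) and -0.09 (adjusted p = 0.928) for Ifnar2, 0.38 (adjusted p = 0.914) and 0.42 (adjusted p = 0.68) for Ifngr1, and 0.17 (adjusted p = 0.979) and 0.36 (adjusted p = 0.549) for Ifngr2. The sign of Ifnar2 by peritoneum thus turned, and the differences of Ifngr1 and Ifngr2 came nearer to 0. By mouth 0 of 9 members were called against the other single drugs, beside 0.0117% of all genes. An unadjusted p under 0.05 was found for 1 member and for 608 of the 17083 tested genes.

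**Figure D4:**
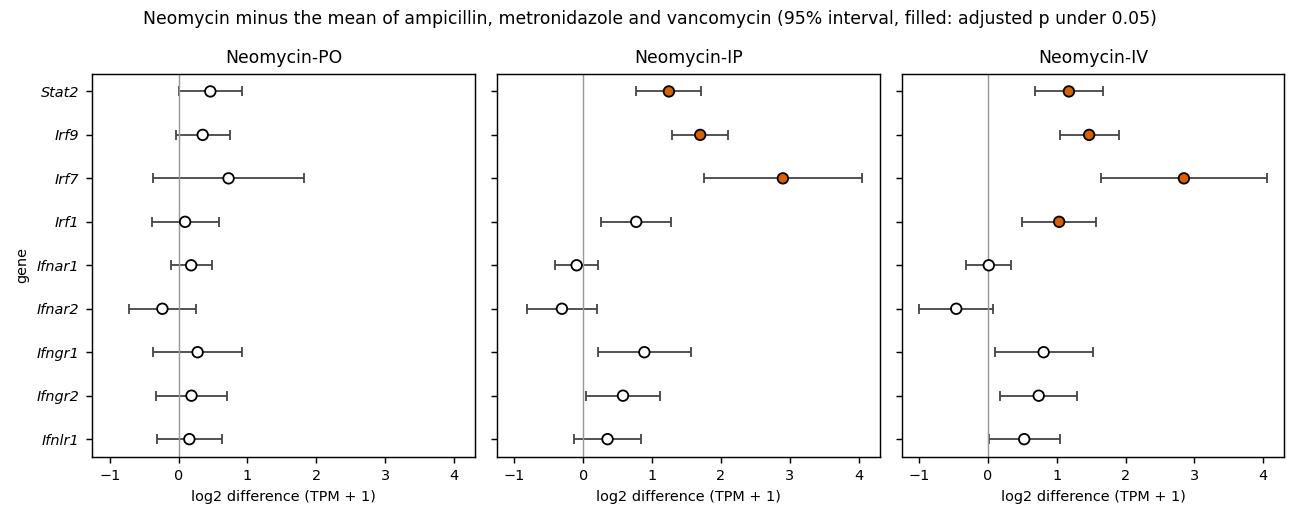
Difference in log2(TPM + 1) between neomycin and the mean of ampicillin, metronidazole and vancomycin of the same route for each of the 9 genes, with 95% intervals from limma; filled points have an adjusted p under 0.05. Irf9, Stat2 and Irf7 are filled in Neomycin-IP and Neomycin-IV, Irf1 in Neomycin-IV, and none in Neomycin-PO.

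With the mix, which holds neomycin, no member was called against PBS by any route in the limma test. Into the peritoneum Stat2 lay from 55.5 to 109 TPM with a median of 87.5, all 6 above the 3 lower PBS-IP libraries, with a change of 1.08 (SE 0.31, 95% interval 0.46 to 1.70, adjusted p = 0.0946). Irf7 lay from 286 to 1202 TPM with a median of 602 with an estimate of 2.09 (SE 0.76, adjusted p = 0.174), and Irf9 lay from 64.6 to 101.4 TPM with a median of 93.1 with an estimate of 0.68 (SE 0.27, adjusted p = 0.211). Of 9 members 0 were called, beside 0.275% of all genes. At an unadjusted p under 0.05 there were 3 members, beside 2494 of the 17083 tested genes. Without PBS-IP replicate 3, the library described above, 2 were called, Stat2 and Irf7, with adjusted p of 0.00852 and 0.0331, and without Mix-IP replicate 6 Stat2 alone was. By mouth the mix had Irf7 from 195 to 580.3 TPM with a median of 438 against a range of 75.5 to 367 TPM (median 121), with 4 of 6 libraries above the highest PBS library and a change of 1.51 (SE 0.68, adjusted p = 0.386), where 0 of 9 members were called beside 0.252% of all genes. The distal score was 2.38 ± 0.644 in Mix-PO against 3.61 ± 1.71 in PBS-PO and 2.71 ± 1.56 in Mix-IP against 3.97 ± 1.58 in PBS-IP. With the muscle and distal scores as covariates the estimate for Irf7 was 0.75 (adjusted p = 0.475) in Mix-PO and 1.17 (adjusted p = 0.18) in Mix-IP. Into a vein 0 of 9 were called, 0 had an unadjusted p under 0.05, and 0% of all genes were called.

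Set against the mix itself, neomycin showed no called difference in a member. By mouth 0 of 9 members were called and 0 had an unadjusted p under 0.05, beside 0.0351% of all genes called. Into the peritoneum the counts were again 0 and 0, beside 0.105%, and the difference in Irf9 was 0.33 (SE 0.24, 95% interval -0.15 to 0.81, adjusted p = 0.618). Into a vein 0 members were called, beside 0.0117% of all genes. An unadjusted p under 0.05 was found for 2099 of the 17083 tested genes and for 3 members. These members were Irf1, at 1.09 (SE 0.31, adjusted p = 0.293), Irf9, at 0.62 (SE 0.25, adjusted p = 0.395), and Stat2, at 0.66 (SE 0.29, adjusted p = 0.395). The Irf1 libraries lay at 165, 184, 205, 229 and 253 TPM with neomycin and from 66.9 to 128 TPM with a median of 105 with the mix, without overlap, which held for 2 of 9 members (Irf1 and Irf7) and 1.09% of all tested genes.

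With vancomycin into the peritoneum Irf9 was called lower than in PBS-IP, in libraries that also differed in tissue scores. The Vancomycin-IP libraries lay at 20.3, 22.4, 31.6 and 45.2 TPM, against 31.8, 46.8, 67.0 and 82.3 TPM in PBS-IP, and 3 of 4 lay below the lowest PBS library. The change was -0.89 (SE 0.29, 95% interval -1.48 to -0.30, adjusted p = 0.0304). This was 1 of 9 members in a comparison that called 19% of all genes. An unadjusted p under 0.05 was found for 5 of 9 members and for 6421 of the 17083 tested genes. Irf1 lay at 74.1, 75.9, 83.3 and 96.4 TPM against 125, 127, 161 and 181 TPM, with an estimate of -0.83 (SE 0.37, adjusted p = 0.0889). Ifngr1 lay at 70.4, 98.1, 122 and 122 TPM against 134, 212, 249.0 and 279 TPM, with an estimate of -1.06 (SE 0.49, adjusted p = 0.104). Irf1, Ifngr1 and Ifngr2 had groups that did not overlap, 3 of 9 members beside 30.6% of all tested genes, and none of them was called. The estimate for Ifngr2 turned from -0.46 to 0.39 (adjusted p = 0.705) and that for Ifnar2 from 0.76 to -0.07 (adjusted p = 0.972) with the muscle and distal scores as covariates.

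The Vancomycin-IP libraries also had high muscle markers. Their smooth muscle score was 11.8 ± 0.317 against 9.60 ± 0.50 in PBS-IP, with 9 of 10 muscle markers called higher, and their epithelium score was 8.69 ± 0.709 against 10.3 ± 0.0912. With the muscle and distal scores as covariates the estimate was -0.38 (adjusted p = 0.648) for Irf9, -0.19 (adjusted p = 0.937) for Ifngr1 and -0.09 (adjusted p = 0.961) for Irf1, and 0.644% of all genes were called. With these covariates the fall in Irf9 was not called. However, every Vancomycin-IP library had a higher smooth muscle score than every PBS-IP library. The covariate fit therefore cannot separate the drug from muscle content in this comparison. Whether the drug or the tissue content lowered Irf9 was not tested. Irf9 was not called when any one of PBS-IP replicates 1 and 3 or Vancomycin-IP replicates 2, 3 and 4 was left out, with an adjusted p of up to 0.0988. Without the appended libraries, which leave 1 Vancomycin-IP library, assumed to vary like the other groups, its change was -0.30 (adjusted p = 0.719). Under quantile normalization the all-gene median in this comparison went from 0.11 to -0.063, and the median of the shifts of single genes was -0.19.

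In the other 8 comparisons with PBS no member was called by limma. By mouth, ampicillin had 2 of 9 members at an unadjusted p under 0.05 (0.0702% of all genes called), metronidazole 0 (0%) and vancomycin 0 (0.176%). Into the peritoneum, ampicillin had 2 (0.492%) and metronidazole 2 (0%). Into a vein, ampicillin had 0 (0.082%), metronidazole 0 (0%) and vancomycin 2 (0.258%). The shares in brackets are at an adjusted p under 0.05. Many more of the 17083 tested genes had an unadjusted p under 0.05. They were 2709 in Ampicillin-PO, 1685 in Ampicillin-IP, 1221 in Metronidazole-IP and 2329 in Vancomycin-IV. The members at an unadjusted p under 0.05 were Irf1, at -0.79 (SE 0.30, adjusted p = 0.296), and Ifnar1 in Ampicillin-PO, Ifnar1 and Irf9 in Ampicillin-IP and in Metronidazole-IP, and Irf9 and Irf1 in Vancomycin-IV. Irf9 was below PBS in the 3 comparisons where it is named, with estimates from -0.60 to -0.54. Ifnar1 was above PBS in 14 of the 15 antibiotic groups, at most by 0.53 (SE 0.22, adjusted p = 0.0771) in Vancomycin-IP, and was never called. These signs are not independent, because the groups of a route share its PBS libraries. PBS-IP had the lowest Ifnar1 mean of all groups (25.4 TPM).

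Other genes of the pathway were counted from lists chosen by function, with earlier results of these data known. The counts are therefore descriptions and not an independent test. Of 14 interferon ligand genes, 2 had rows in the table, Ifng and Ifnz. Both were too low to be tested, with group means of at most 0.156 TPM for Ifng and 0.133 for Ifnz among the PBS and neomycin groups, and Ifng was at 0 in 32 libraries. The Janus kinases Jak1, Jak2, Jak3 and Tyk2 and the shared chain Il10rb had 0 of 5 called against PBS in Neomycin-IP and Neomycin-IV. Jak1, the kinase bound to Ifnar2 and Ifngr1, had a log2 change of 0.27 (SE 0.16, adjusted p = 1) in Neomycin-IP, and Jak2 of 0.26 (SE 0.16, adjusted p = 0.786) in Neomycin-IV.

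Among 16 negative regulators of the pathway, 1 rose in each injection route, beside 0.603% (Neomycin-IP) and 0.544% (Neomycin-IV) of all tested genes called. Usp18, which removes Isg15 and binds Ifnar2 to block signalling, rose by 2.23 (SE 0.34, adjusted p = 7.2e-06) in Neomycin-IP and by 2.38 (SE 0.34, adjusted p = 9.1e-07) in Neomycin-IV, from 7.12 ± 5.96 to 34.2 ± 16.1 TPM and from 5.996 ± 3.40 to 32.6 ± 5.94 TPM. Socs1, an inhibitor of Janus kinases, had changes of 0.61 (SE 0.26, adjusted p = 0.642) and 0.56 (SE 0.25, adjusted p = 0.628). Of 6 other IRFs 0 were called, and Irf5 had 0.25 (SE 0.24, adjusted p = 1) and 0.46 (SE 0.23, adjusted p = 0.688). Of 16 tested genes that sense nucleic acids or relay to IRFs, 0 were called in either route. The smallest p among them belonged to Mavs, the mitochondrial adaptor of RNA sensing, at 0.49 (SE 0.14, adjusted p = 0.0947) in Neomycin-IP, and to the RNA sensor Ifih1, at 1.53 (SE 0.42, adjusted p = 0.0671) in Neomycin-IV. By mouth 0 genes of the kinase, negative regulator, IRF and sensing lists were called with neomycin.

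Most target genes of ISGF3 rose with injected neomycin. Of 25 ISGF3 targets, 20 rose and 0 fell in Neomycin-IP and 23 rose and 0 fell in Neomycin-IV, with a median change of 1.92 and 2.11 beside 0.08 and -0.03 over all genes. Of all 17083 tested genes, 98 were called higher in Neomycin-IP and 93 in Neomycin-IV. Oas2, an RNA-sensing synthetase, rose by 3.97 (SE 0.65, adjusted p = 3.14e-05) in Neomycin-IP, and Ifi44 by 3.72 (SE 0.44, adjusted p = 8.02e-09) in Neomycin-IV. Not called in either route was Mx1, a GTPase against RNA viruses, at 1.81 (SE 0.49, adjusted p = 0.066) and 1.57 (SE 0.48, adjusted p = 0.17). Of 20 interferon gamma targets 8 rose and 0 fell in each of both routes. Nlrc5, the activator of class I antigen presentation genes, rose by 1.99 (SE 0.38, adjusted p = 0.000838) in Neomycin-IP, and the peptide transporter Tap1 by 1.93 (SE 0.36, adjusted p = 0.000314) in Neomycin-IV. Cxcl10, a chemokine for T cells, had 1.59 (SE 0.46, adjusted p = 0.106) and 1.69 (SE 0.45, adjusted p = 0.0572) and was not called. In Mix-IP 7 of 25 ISGF3 targets and 0 of 20 interferon gamma targets rose, and in Neomycin-PO 0 of 25 and 0 of 20, beside 31 and 3 of all tested genes called higher. In Vancomycin-IP 5 of 25 ISGF3 targets and 2 of 20 interferon gamma targets fell and 0 rose, beside 3.08% of all genes lower. With the muscle and distal scores as covariates 0 of either list fell or rose. As said above, that fit cannot separate the drug from muscle content in Vancomycin-IP.

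Markers of immune cells were set beside these values. In Neomycin-IP and Neomycin-IV, 0 of 6 B cell, 0 of 6 T cell, 0 of 6 macrophage, 0 of 2 tested neutrophil and 0 of 3 endothelial markers were called against PBS. Of 4 plasmacytoid dendritic cell markers 1 was called in each, Bst2, at 1.98 (SE 0.34, adjusted p = 6.98e-05) and 2.11 (SE 0.33, adjusted p = 9.08e-06), which is itself on the ISGF3 list. Siglech, named here as the defining surface receptor of these cells, had 0.22 (SE 0.33, adjusted p = 1) and -0.28 (SE 0.32, adjusted p = 0.87). The B cell markers had a median change of -1.75 in Neomycin-IV and 0.29 in Neomycin-IP, with 0 called.

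Within groups the 9 members did not vary as one set. Correlations were taken over the 97 libraries after subtracting group means of log2(TPM + 1), for 36 pairs, with p from 100000 permutations inside groups, where 1e-05 is the smallest they can give, and adjusted over the pairs. The tightest pair was Irf1 with Ifnlr1, at r = 0.87 and rho = 0.85 (adjusted permutation p = 2e-05 and 1.89e-05). Both chains of the interferon gamma receptor went together, at r = 0.82 and rho = 0.77 (adjusted permutation p = 2e-05 and 1.89e-05). Both chains of the type I receptor did not, at r = 0.18 and rho = 0.17 (adjusted permutation p = 0.164 and 0.165). Ifnar2 ran against receptor chains for other interferons, at r = -0.76 and rho = -0.77 (adjusted permutation p = 2e-05 and 1.89e-05) with Ifngr2 and r = -0.72 and rho = -0.74 (adjusted permutation p = 2e-05 and 1.89e-05) with Ifnlr1. The ISGF3 subunits Stat2 and Irf9 were only moderately related, at r = 0.43 and rho = 0.37 (adjusted permutation p = 0.00036 and 0.0013), while Irf7 with Irf9 had r = 0.70 and rho = 0.71 (adjusted permutation p = 2e-05 and 1.89e-05). Without the 2 libraries farthest from the median of the first gene these r were 0.853, 0.801, 0.154, -0.771, -0.720, 0.388 and 0.685, in the same order.

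The members lined up with tissue composition in different ways. Irf1 followed the epithelium score, at r = 0.89 and rho = 0.85 (adjusted permutation p = 1.8e-05 and 1.8e-05), as did Ifngr2, at r = 0.82 and rho = 0.80 (adjusted permutation p = 1.8e-05 and 1.8e-05), and Ifnlr1, at r = 0.82 and rho = 0.76 (adjusted permutation p = 1.8e-05 and 1.8e-05), out of 27 relations. Ifngr1 (r = 0.74, rho = 0.70), Irf9 (r = 0.67, rho = 0.61) and Irf7 (r = 0.62, rho = 0.62) also rose with the epithelium score. Ifnar2 ran against that score (r = -0.69, rho = -0.69), and Irf9 ran against the smooth muscle score (r = -0.61, rho = -0.63). The adjusted permutation p of each of these was 1.8e-05. Ifnar2 followed the smooth muscle score, at r = 0.77 and rho = 0.77 (adjusted permutation p = 1.8e-05 and 1.8e-05), and Ifngr2 ran against it, at r = -0.76 and rho = -0.76 (adjusted permutation p = 1.8e-05 and 1.8e-05). Irf7 fell with the distal score, at r = -0.67 and rho = -0.68 (adjusted permutation p = 1.8e-05 and 1.8e-05), and Stat2 did so as well, at r = -0.52 and rho = -0.55 (adjusted permutation p = 1.8e-05 and 1.8e-05). Ifngr1 rose with it, at r = 0.30 and rho = 0.28 (adjusted permutation p = 0.0159 and 0.0199). Stat2 and Ifnar1 had no detectable relation to the epithelium score, at r = 0.02 and rho = 0.02 (adjusted permutation p = 0.92 and 0.925) and r = -0.01 and rho = -0.01 (adjusted permutation p = 0.92 and 0.955). Without the 2 libraries farthest in the score, r was 0.86 for Irf1, 0.81 for Ifngr2 and 0.79 for Ifnlr1 with epithelium, 0.76 for Ifnar2 with muscle and -0.69 for Irf7 with the distal score. In the fit with both scores as covariates 7 of 9 members had a muscle slope and 5 of 9 a distal slope at an adjusted p under 0.05, beside 76.5% and 57.7% of all genes. With both scores regressed out, r was 0.74 for Irf1 with Ifnlr1, 0.78 for Ifngr1 with Ifngr2, -0.42 for Ifnar2 with Ifngr2 and 0.46 for Stat2 with Irf9.

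**Figure D5:**
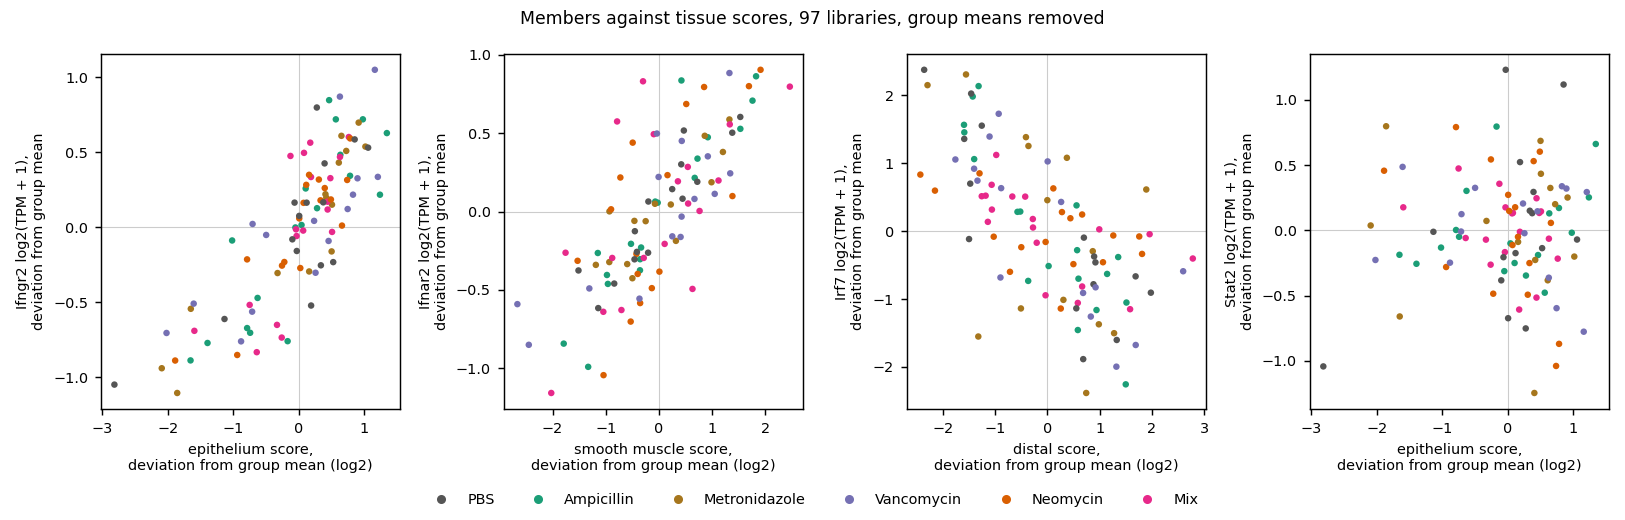
Each point is 1 of 97 libraries, coloured by drug, with group means removed from both axes; the vertical axis is log2(TPM + 1) of the gene and the horizontal axis the tissue score, the mean log2(TPM + 1) of its markers. Ifngr2 rises with the epithelium score (r = 0.82), Ifnar2 with the smooth muscle score (r = 0.77), Irf7 falls with the distal score (r = -0.67), and Stat2 shows no slope on the epithelium score (r = 0.02).

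Genes whose 18 group means ran most like those of a member differed between the factors and the receptors. These values describe group means that share libraries and tissue make-up. For Irf9 they were Rtp4 (r = 0.98), Lgals9 (0.98) and Ddx60 (0.98), for Irf7 Oasl1 (0.96), Oas3 (0.96) and Oasl2 (0.96), and for Stat2 Oas1b (0.95), Ifi35 (0.95) and Rsad2 (0.94). Of these, Rtp4, Oas3, Oasl2, Ifi35 and Rsad2 are on the ISGF3 list. For Irf1 they were Pde9a (0.96), Slc25a20 (0.93) and Elf3 (0.93). For Ifnlr1 they were Sema4a (0.97), Entpd8 (0.97) and the tight junction gene Cgn (0.96), for Ifngr1 Acad11 (0.98), Tmem45b (0.97) and Plekhf2 (0.97), and for Ifngr2 Ankrd13a (0.97), Cds1 (0.96) and Sowahb (0.96). For Ifnar2 they were Cygb (0.94), Dusp26 (0.93) and Cib2 (0.93). Ifnar1 had the weakest likeness, to Fam168b (0.87), Mtor (0.86) and Dcaf7 (0.85), and its r with these genes inside groups was 0.31, 0.31 and 0.18.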

How the data were processed

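The submitters' processing notes name cutadapt 3.5, Trim Galore 0.6.2, Salmon without a version, and the build GRCm39, in no stated order. The deposited values are TPM per gene, made by the authors from 75-cycle single-end reads, and the strand setting is not given in the sources used here. Values were used as log2(TPM + 1), with a pseudocount of 1, for 17083 genes at 1 TPM or more in at least 4 libraries. One limma 3.58.1 fit in R 4.3.3 held all 18 groups, with trend and robust variance, and p-values were Benjamini-Hochberg adjusted over all genes tested, with 0.05 as threshold. Its steps were tested on simulated data. Correlations and permutations used Python 3.11.15. The members and gene lists were chosen with earlier results of these data known. Beside the 9 members the text names, per pathway list, genes among those with the largest called change or the smallest p without a call, and the 3 genes most like each member. No column was left unused, and no library pair was identical. TPM keep no depth, so precision is given by the spread between libraries. Alternatives were another pseudocount, filters, quantile normalization, sample weights, replicate blocks, tissue covariates, subsets of groups and leaving out libraries. One item of the pathway lists is not reported here.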

Additional observations from a re-analysis of the deposited data

Results flagged for a closer look

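Of 162 sets of libraries, each 1 gene in 1 group of 4 to 6, 2 held a library that stood far from the rest by Dixon's test on the log2(TPM + 1) scale. Chance gives such a gap in about 1 set in 20. Irf1 in PBS-PO replicate 2 was 84.4 TPM, the lowest of 6, and its gap to the next library was 0.637 of the group's range, past the critical value for 6. Irf7 in Neomycin-IV replicate 1 was 1421 TPM, the highest of 5, and its gap to the next library was 0.71 of the range, just past the critical value.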

How the results depend on the processing

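Counts of called members kept within 1.5 times of the reported ones except as follows. With a pseudocount of 10, Neomycin-IP had 2 called members against PBS. With quantile normalization Vancomycin-IP had 2. With sample weights Ampicillin-PO, Ampicillin-IP and Vancomycin-IV had 2, Neomycin-IP 4, Vancomycin-IP 5, Mix-IP 6 (among 6264 genes called in all), the neomycin difference between peritoneum and mouth 2, Neomycin-IP against the other single drugs 7, Neomycin-IV against Mix-IV 1, and the F tests of neomycin, vancomycin, the mix and PBS 1 each. With the replicate block, and with a block by library number, Neomycin-IP had 2; the replicate block left 1 in Vancomycin-IP and Neomycin-IV, and 3 and 4 against the other single drugs by peritoneum and vein. The numbers are not shown to pair the libraries: same-numbered deviations correlated from -0.696 to 0.837, and 0 of 15 comparisons had every pair over 0.1. The PBS F test could not be fitted with the library number block. With tissue covariates Ampicillin-IP had 1, Neomycin-IP 3, Vancomycin-IP 0 and Neomycin-IV 2. Without the appended libraries Vancomycin-IP had 0, Neomycin-IV 3 and the neomycin difference between vein and mouth 1. With the compared groups fitted alone Neomycin-IP and Neomycin-IV had 0 against PBS, Vancomycin-IP 4 and Neomycin-IV against the other single drugs 2. Leaving out 1 library at a time gave 0 to 2 in Mix-IP, 0 to 3 in Neomycin-IP and Neomycin-IV, 0 to 1 in Vancomycin-IP, 3 to 4 in Neomycin-IV and 3 to 3 in Neomycin-IP against the other single drugs, and 0 to 0 in all other comparisons. The cause was not tested. No estimate that was called, in the reported fit or under the alternative, changed sign. Over all comparisons and alternatives 264 uncalled estimates did. Those of neomycin against PBS or the other single drugs, and of members called under some alternative, follow. Against PBS in Neomycin-PO, quantile normalization gave -0.036 for Ifnar2 and -0.020 for Ifnlr1, sample weights -0.040 for Stat2, -0.22 for Ifnar2 and 0.31 for Ifngr1, and covariates -0.019 for Ifnar2. In Neomycin-IP, Ifnar2 was -0.0046 with quantile normalization and -0.31 with sample weights. In Vancomycin-IP, covariates gave -0.067 for Ifnar2 and 0.39 for Ifngr2. Against the other single drugs, covariates gave -0.044 for Irf1 by mouth and 0.098 for Ifnar2 by peritoneum, and Ifnar1 by vein was -0.068 with sample weights and -0.019 without the appended libraries. Leaving out 1 library gave, in Neomycin-PO against PBS, -0.047 to 0.21 for Irf9, -0.16 to 0.23 for Ifnar2, -0.37 to 0.077 for Ifngr1, -0.040 to 0.26 for Ifngr2 and -0.087 to 0.19 for Ifnlr1. It gave -0.072 to 0.20 for Ifnar2 in Neomycin-IP, -0.047 to 0.19 for Ifnar1 in Neomycin-IV and -0.018 to 0.62 for Stat2 in Vancomycin-IP. Against the other single drugs it gave -0.12 to 0.12 for Ifnar1 by vein and -0.071 to 0.24 for Irf1 by mouth. Depth is unknown from TPM and sets no stated limit.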
